A study of Mus musculus with 43 samples.

Results

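The 44 mouse collagen genes were described in sorted bone marrow cells of mice that carried JAK2V617F cells and of mice that did not. They were all rows of the count table whose mouse symbol has the form of a collagen chain, Col, a type number, a and a chain number, which gave 44 of 56941 gene identifiers. By class, 11 encode fibrillar collagens, 6 the type IV chains of basement membranes and 27 other collagens. A group of 7 wild-type CD45.1 recipients, 4 male and 3 female, had received 5 M (M, 1e6) whole marrow cells of JAK2V617F mice carrying CD45.2, without conditioning, and were killed about 7 months later. From each of these animals 3 libraries were made: stroma-enriched cells (n = 7), host cells (CD45.1, n = 7) and donor cells (CD45.2, n = 7). Untransplanted wild-type CD45.1 mice, 4 male and 4 female, gave control stroma (n = 8) and control CD45.1 cells (n = 8). Further CD45.1 CD11b-positive cells came from 3 male mice 52 weeks after transplantation of 5 M cells and from 3 male untransplanted controls. The labels describe recipients and controls as matched for age and sex, and the samples carry no age. No mice were given normal marrow, so the JAK2 mutation, the CD45 type of the graft and transplantation itself cannot be told apart. Stroma-enriched cells are the cells left after gating out both CD45 types and cells with lineage markers (B220, CD4, CD8, CD11b, Ly-6G/Ly-6C, NK1.1, Ter119), from crushed and enzyme-digested whole bones. The labelled final blood chimerism of the 7 transplanted mice ran from 0.63 to 5.99, with no unit given.

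A collagen is a trimer of chains that wind into a triple helix. Fibrillar collagens of types I, III and V form the tensile fibres of bone, tendon and the reticulin of marrow, and types II and XI form the fibres of cartilage. Type IV chains build the sheet under endothelium and around vessels, and the remaining types bind fibrils, form networks or cross the cell membrane. Marrow fibrosis, in which reticulin and collagen fibres build up in the marrow, is a known complication of JAK2-mutant myeloproliferative neoplasms.

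Promoter sequences were taken from RefSeq (GRCm38.p6), 250 bases before to 50 bases after the annotated start. They cover 35 of the 44 genes, in 38 windows. The first pair below belongs to Col5a3 and Col27a1, which encode fibrillar chains and differed between sorts of blood-forming cells. The second pair belongs to Col4a1 and Col4a2, which lie head to head and moved together in stroma; their windows share 78 bases read on opposite strands. Capitals mark exact matches, on either strand, to CCAAT (the CCAAT box), TATAAA (the TATA box) or GGGCGG (the GC box). Within a window the marked letters do not overlap one another. The GC box match of Col4a1 and the last one of Col4a2 are the same bases read on opposite strands, marked in both windows.
Col5a3, chr9:20815018-20815317, minus strand: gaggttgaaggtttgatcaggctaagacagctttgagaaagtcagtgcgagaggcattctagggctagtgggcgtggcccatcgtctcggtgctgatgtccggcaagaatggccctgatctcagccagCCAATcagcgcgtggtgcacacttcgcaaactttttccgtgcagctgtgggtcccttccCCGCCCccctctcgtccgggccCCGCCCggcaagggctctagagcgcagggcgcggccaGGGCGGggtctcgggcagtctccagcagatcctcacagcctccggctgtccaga
Col27a1, chr4:63215162-63215461, plus strand: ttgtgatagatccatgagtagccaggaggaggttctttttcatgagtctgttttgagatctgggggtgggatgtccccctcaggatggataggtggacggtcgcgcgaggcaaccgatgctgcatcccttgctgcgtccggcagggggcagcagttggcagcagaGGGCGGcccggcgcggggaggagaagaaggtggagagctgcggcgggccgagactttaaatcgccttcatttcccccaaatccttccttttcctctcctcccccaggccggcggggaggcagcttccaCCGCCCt
Col4a1, chr8:11312777-11313076, minus strand: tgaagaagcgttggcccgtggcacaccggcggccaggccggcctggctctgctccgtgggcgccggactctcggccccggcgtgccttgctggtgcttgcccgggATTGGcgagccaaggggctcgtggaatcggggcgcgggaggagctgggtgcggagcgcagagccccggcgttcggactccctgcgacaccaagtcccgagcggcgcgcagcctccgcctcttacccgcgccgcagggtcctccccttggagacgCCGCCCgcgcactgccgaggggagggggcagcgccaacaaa
Col4a2, chr8:11312555-11312854, plus strand: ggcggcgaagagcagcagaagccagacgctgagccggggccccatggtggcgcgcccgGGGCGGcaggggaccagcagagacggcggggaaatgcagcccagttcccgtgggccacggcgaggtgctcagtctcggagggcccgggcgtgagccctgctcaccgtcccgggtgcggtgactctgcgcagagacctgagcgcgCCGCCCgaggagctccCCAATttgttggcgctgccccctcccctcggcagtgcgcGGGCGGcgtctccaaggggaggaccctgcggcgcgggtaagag
The GC box letters were found in 23 of the 38 collagen windows (60.5%) and in 35.6% of all 32817 promoter windows. The CCAAT letters were in 34.2% of collagen windows and 37.4% of all windows, and the TATA letters in 13.2% and 13.6%. None of the 4 windows printed holds the TATA letters. Col5a3 holds 1 CCAAT and 3 GC box matches, Col27a1 0 and 2, Col4a1 1 and 1, and Col4a2 1 and 3. These are matches of letters and not measured binding sites.

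Collagen expression was concentrated in the stroma. Library totals, in counts, were 41.21 to 63.97 M in transplanted and 50.73 to 143.23 M in control stroma, 16.34 to 19.68 M in donor, 16.3 to 19.05 M in host and 15.71 to 18.56 M in control CD45.1 cells, and 32.48 to 44.85 M in transplanted and 35.53 to 42.98 M in control CD11b cells. Collagen genes took 0.403 to 2.34% of counts in transplanted stroma and 0.764 to 2.37% in control stroma, against at most 0.00867% in any library of the other sorts. By TPM (a level per transcript length, scaled to the same sum in each library), 42 of the 44 genes had their highest group median in a stroma group. The exceptions were Col7a1, the anchoring-fibril chain of skin, and Col20a1, a fibril-associated chain. In control stroma 9 genes had a median of at least 100 TPM, 21 of at least 10 and 33 of at least 1, and transplanted stroma gave 9, 21 and 34. Stroma libraries were made with another kit than the CD45-sorted ones, so levels across these sorts stand side by side without a test.

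**Figure D1:**
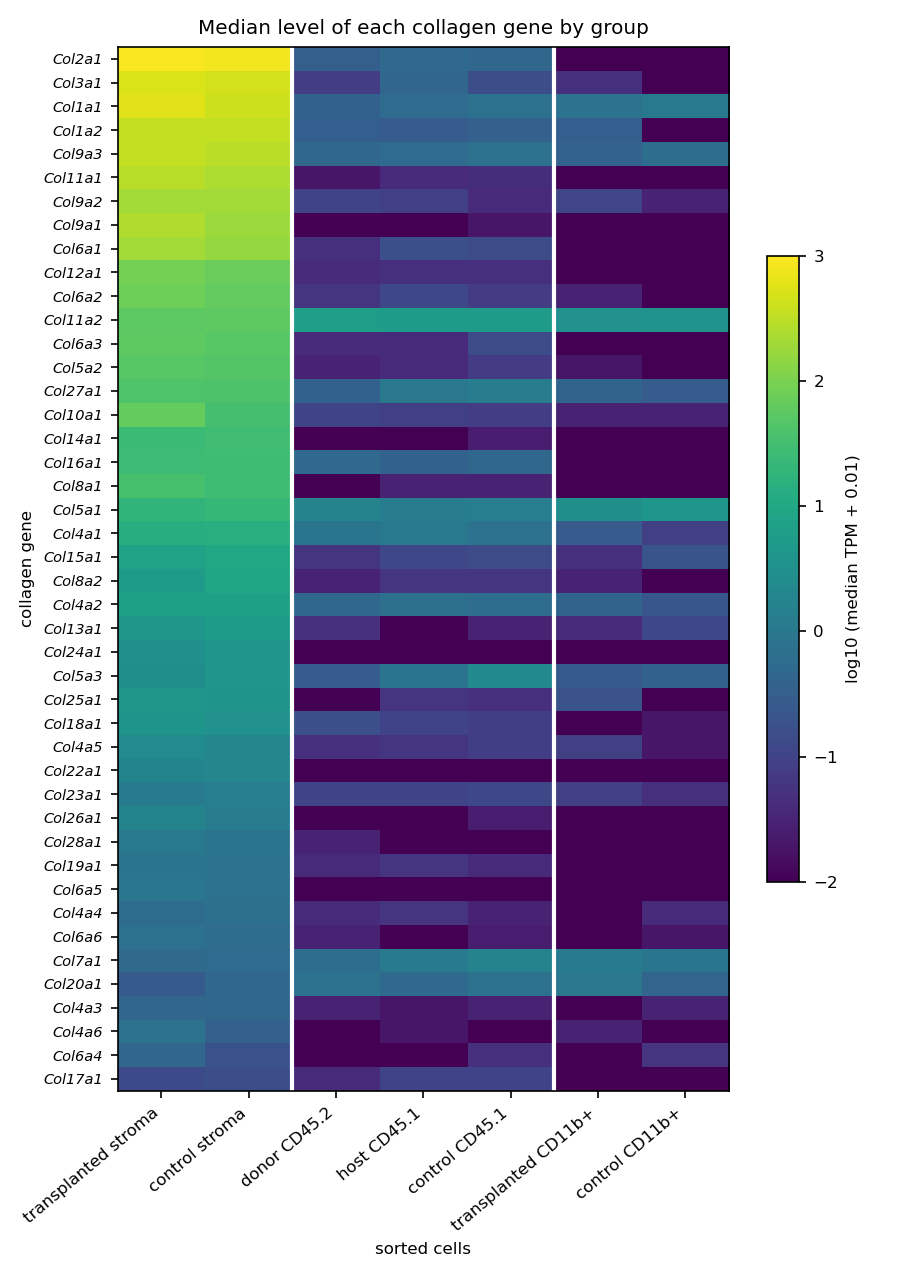
Median TPM of each of the 44 collagen genes (rows, in the order of control stroma) in the 7 groups (columns), coloured by log10 of the median TPM plus 0.01. The 2 stroma columns are the brightest for all genes but Col7a1 and Col20a1, and Col11a2 is the brightest row in donor, host and control CD45.1 cells.

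The stroma marker genes were present in both stroma groups. Osteoblast markers (8 genes) summed to 2305 to 14113 TPM in transplanted and 4204 to 13969 TPM in control stroma, chondrocyte markers (8 genes) to 3056 to 20907 and 6102 to 20969 TPM, and LepR stroma markers (8 genes) to 529 to 2672 and 756 to 4552 TPM. Endothelial markers (8 genes) summed to only 43.3 to 99.9 TPM in transplanted and 61.3 to 113 TPM in control stroma. Blood-cell genes remained in the gate: the 8 haematopoietic markers summed to 4231 to 37719 TPM in transplanted and 6118 to 25059 TPM in control stroma. The 8 erythroid markers summed to 15280 to 117466 TPM in transplanted and 2439 to 10661 TPM in control stroma, and 6 of them passed as higher there. Their part in the collagen results was not tested. In bulk libraries, fewer cells of a type and less RNA per cell cannot be told apart.

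The transplanted stroma library of N032 stood apart. It held 993.3 TPM of collagen RNA, against 3587 to 7034 TPM in the 6 other transplanted libraries, and 30 of the 44 genes had their lowest value of all 15 stroma libraries in it. Col5a1, at 22.3 TPM, was not among them. Car1, a carbonic anhydrase of young red cells, was at 4390 TPM in N032 and at 196 to 2542 TPM in the other stroma libraries. The 8 summed erythroid markers were instead highest in transplanted library N203 (117466 TPM). The 8 summed haematopoietic markers were lowest of the transplanted libraries in N032 (4231 TPM). What sets N032 apart was not tested. Per the labels, N032 and N005 were each killed on a day that held no control, and N005 held 4620 TPM of collagen RNA. Main results are therefore also given without it.

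The main comparison asked whether collagen genes differ between stroma of transplanted mice and of untransplanted controls. None of the 44 genes passed, by edgeR's quasi-likelihood test with Benjamini-Hochberg adjustment over 26191 genes at an adjusted p below 0.05, where 391 genes (1.49%) did, 0.466% higher and 1.03% lower. Of the 44, 28 lay above 0 and 16 below, with a median log2 fold change of 0.08, against 0.04 over all genes. Of all 26191 genes, 14950 lay above 0. The 11 fibrillar genes had a median of 0.03, the 6 basement membrane genes of 0.09 and the 27 others of 0.12. At an unadjusted p below 0.05 there were 5 of 44 (11.4%), beside 7.96% of all genes. The 95% interval stayed within a log2 of 1 either way for 29 of the 44 genes and 9 of the 11 fibrillar ones. Without N032, 1 collagen gene (Col4a6) and 593 of all genes passed.

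Type I collagen, the main protein of bone, is made of the Col1a1 and Col1a2 chains. Col1a1 was at 139, 606 and 775 TPM in transplanted stroma (lowest, median, highest) and at 268.9, 417 and 1388 TPM in control stroma. The groups overlapped widely, and 3 of 7 transplanted libraries lay below every control. The log2 fold change was -0.25 ± 0.40 (SE; 95% interval -1.10 to 0.59; edgeR adjusted p = 0.998), and it was 0.03 without control N002, the deepest library and the highest for Col1a1. Col1a2 was at 82.2, 345 and 470 TPM in transplanted and 198, 353 and 655 TPM in control stroma, a log2 fold change of -0.20 ± 0.33 (SE). The ratio of Col1a1 to Col1a2 TPM had a median of 1.62 in transplanted stroma (0.879 to 1.85) and 1.46 in control stroma (1.02 to 2.12).

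Col3a1, the chain of reticulin fibres, was at 128.6, 529 and 774 TPM in transplanted stroma and 235, 451 and 811 TPM in control stroma. Its log2 fold change was 0.09 ± 0.35 (SE; 95% interval -0.65 to 0.83). The groups overlapped, as the plot of stroma levels shows. Col5a1 and Col5a2, chains of the type V collagen that nucleates type I fibrils, had medians of 19.0 and 49.9 TPM in transplanted and 21.8 and 45.0 TPM in control stroma, with log2 fold changes of -0.17 ± 0.17 and 0.03 ± 0.31 (SE). Their relative Col5a3 ran from 0.905 to 7.57 TPM in transplanted and 3.04 to 5.71 TPM in control stroma, at a log2 of -0.06. Col24a1, a minor fibrillar chain of bone, had medians of 3.24 and 4.10 TPM, at a log2 of -0.38 ± 0.24 (SE; edgeR adjusted p = 0.846).

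**Figure D2:**
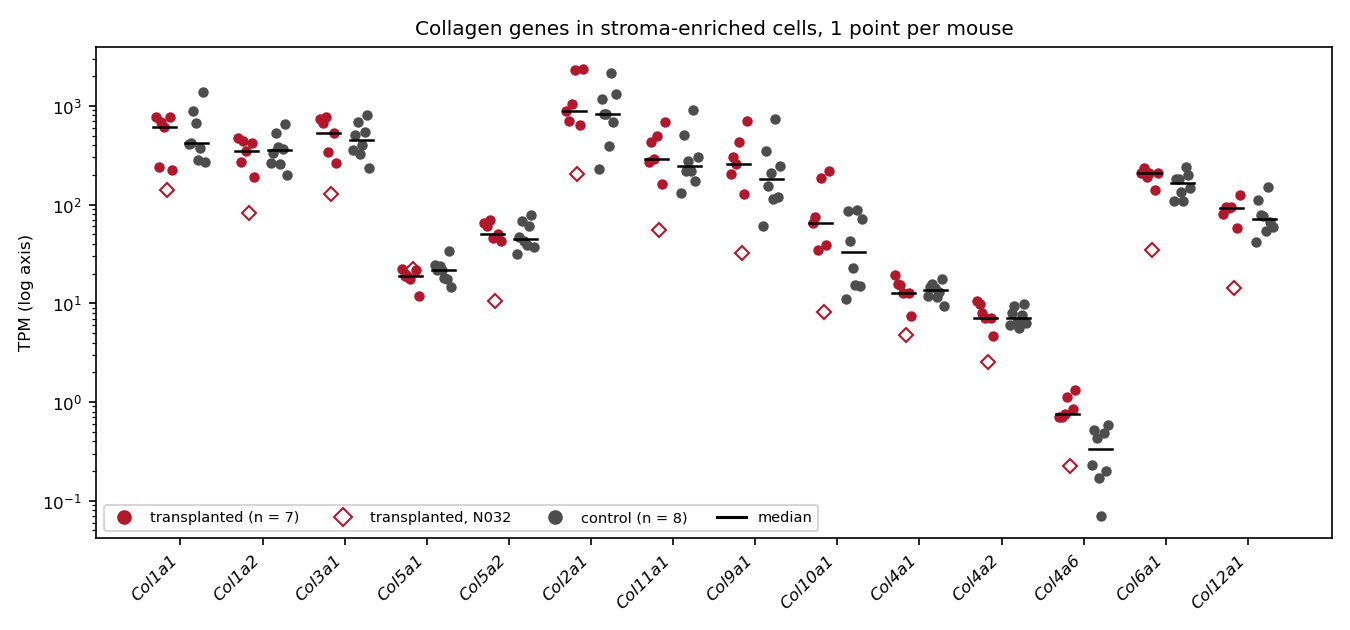
TPM (log axis) of 14 collagen genes in stroma-enriched cells, transplanted mice (left of each pair, n = 7) and controls (right, n = 8), 1 point per mouse with the group median as a line. The open diamond is N032, the lowest transplanted library for 13 of the 14 genes, and the groups overlap for all 14, least for Col4a6.

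The cartilage collagens were among the most abundant. Col2a1, the chain of cartilage fibrils, was at 203.7, 893 and 2341 TPM in transplanted and 230, 825 and 2171 TPM in control stroma, the highest median of any collagen in both groups. Its log2 fold change was 0.47 ± 0.38 (SE; 95% interval -0.33 to 1.26; edgeR adjusted p = 0.936). Col11a1 and Col11a2, which set the diameter of those fibrils, had medians of 292 and 55.5 TPM in transplanted and 247 and 57.0 TPM in control stroma. Col27a1, a fibrillar chain of growth-plate cartilage, had medians of 42.3 and 40 TPM. These 3 genes lay at log2 fold changes of 0.25, 0.21 and 0.18. The type IX chains that coat cartilage fibrils had medians of 258 and 181 TPM for Col9a1, 207 and 200 TPM for Col9a2, and 350 and 298 TPM for Col9a3, transplanted first, at log2 values of 0.48, 0.03 and 0.47. Col10a1, the network collagen of hypertrophic chondrocytes, was at 8.23, 65.5 and 219 TPM in transplanted and 11.2, 32.8 and 87.2 TPM in control stroma. It did not pass (log2 1.09 ± 0.41 SE, edgeR adjusted p = 0.369), and 2 of 7 transplanted libraries lay above every control. All 8 chondrocyte markers also had log2 fold changes above 0, with a median of 0.33, and none passed.

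The basement membrane genes were far lower. Col4a1 was at 4.76, 12.8 and 19.2 TPM in transplanted and 9.43, 13.6 and 17.7 TPM in control stroma, and Col4a2 at 2.56, 7.09 and 10.6 and 5.63, 7.07 and 9.85 TPM. Their log2 fold changes were -0.10 ± 0.24 and -0.01 ± 0.23 (SE). The ratio of Col4a1 to Col4a2 varied little, with medians of 1.81 in transplanted and 1.80 in control stroma (1.59 to 1.91 and 1.48 to 2.20). Col4a3 and Col4a4, chains known from kidney and lung, stayed below 1 TPM in every stroma library, and Col4a5 had medians of 2.57 and 2.03 TPM. They lay at log2 values of 0.19, -0.22 and 0.43, and did not pass.

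Col4a6, the last type IV chain, had the largest log2 fold change of the 44 genes. It was at 0.225, 0.755 and 1.33 TPM in transplanted and 0.0700, 0.330 and 0.585 TPM in control stroma. All transplanted libraries but N032 lay above every control. The log2 fold change was 1.22 ± 0.34 (SE; 95% interval 0.51 to 1.93; edgeR adjusted p = 0.101), which did not pass. It passed without N032, the transplanted library within the control range (log2 1.31, edgeR adjusted p = 0.0379). It also passed by DESeq2 (adjusted p = 0.0144) and on TPM plus 1 (limma adjusted p = 0.0403). It did not pass in the other settings or without any other single library. Over the single libraries left out its log2 value ran from 1.08 to 1.40.

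**Figure D3:**
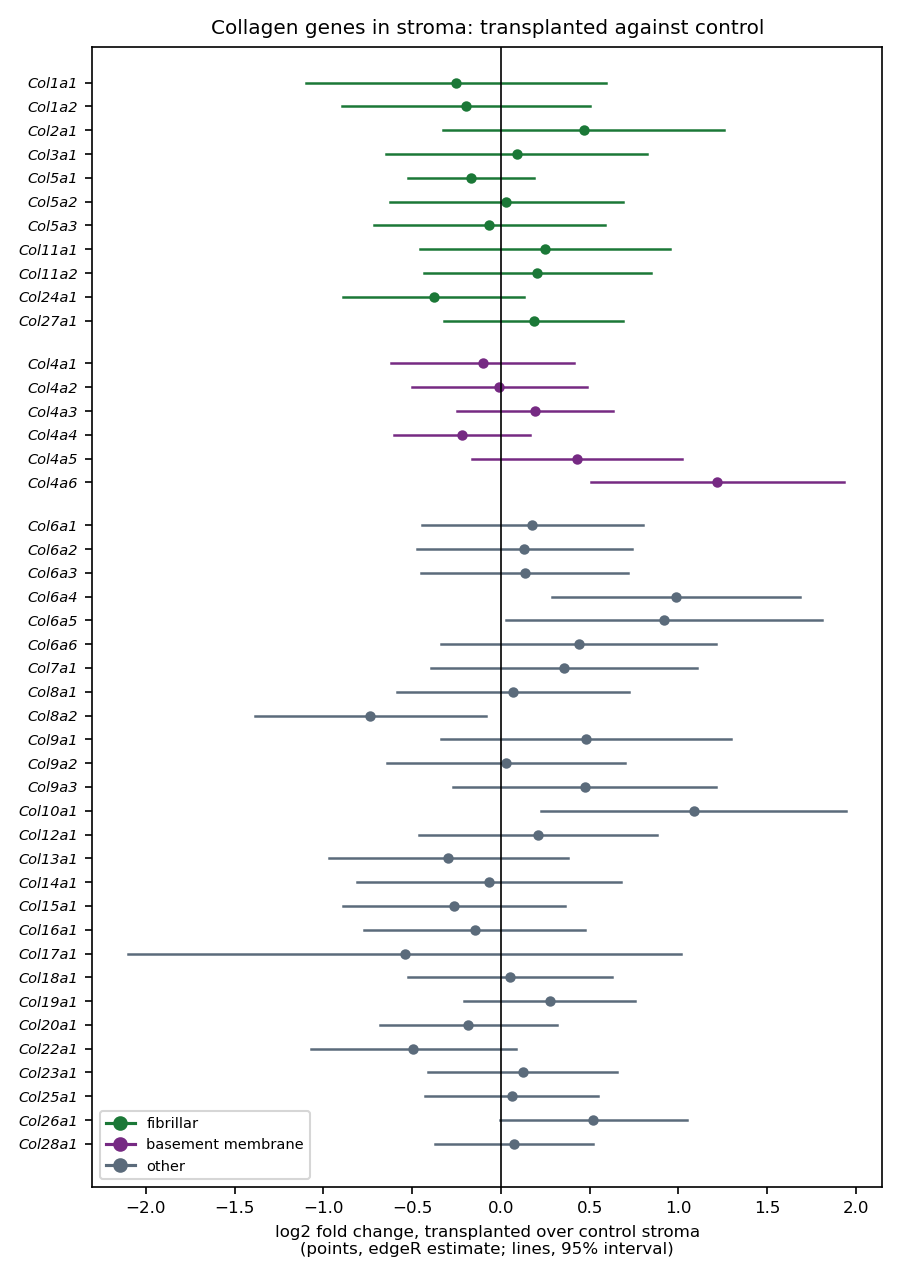
Log2 fold change of each of the 44 collagen genes, transplanted over control stroma (edgeR estimate, with its 95% interval as a line), by class. For 39 of the 44 genes the interval holds 0; the 5 others are Col4a6, Col6a4, Col6a5 and Col10a1 above 0 and Col8a2 below.

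Among the 27 other collagens, Col6a1, a chain of the type VI collagen that forms beaded microfilaments around cells, had the highest median outside type IX. It was at 34.2, 207 and 232 TPM in transplanted and 108, 164 and 242 TPM in control stroma, at a log2 of 0.18 ± 0.29 (SE). The ratio of Col6a1 to Col6a2 hardly varied, at 2.30 to 2.66 in transplanted and 2.40 to 2.67 in control stroma. Col12a1, which coats type I fibrils in tendon and periosteum, had medians of 91.1 and 71.8 TPM, at a log2 of 0.21. Col6a4 and Col6a5 were low, with medians of 0.445 and 0.170 TPM and of 0.915 and 0.710 TPM, and lay at log2 values of 0.99 and 0.92 (edgeR adjusted p = 0.252 and 0.589). Col8a2, a network collagen, was at 2.02, 5.79 and 7.62 TPM in transplanted and 5.49, 8.87 and 19.7 TPM in control stroma, at a log2 of -0.74 ± 0.31 (SE; edgeR adjusted p = 0.499).

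Genes that make, process, break down and bind collagen were tested from lists chosen with earlier results of these data known. None of their members passed in stroma, beside 1.49% of all genes. Over all 26191 genes 14950 lay above 0, with a median log2 of 0.04. Of 21 synthesis genes 15 lay above 0, with a median log2 of 0.08, and of 13 processing and cross-linking genes 6, with a median of -0.05. Of 15 degradation genes 7 lay above 0 (median -0.03), of 9 receptors 4 (median -0.0046), of 18 fibril partners 9 (median 0.02) and of 15 basement membrane partners 6 (median -0.07). The smallest p of all these was that of Mmp14, a membrane-bound collagenase, at 8.53, 15.8 and 22.3 TPM in transplanted and 16.6, 35.1 and 70.0 TPM in control stroma. Of 7 transplanted libraries 4 lay below every control (log2 -1.08 ± 0.27 SE, edgeR adjusted p = 0.066). Mrc2, a receptor that takes up collagen fragments, was at 0.725, 3.08 and 4.17 TPM in transplanted and 4.04, 5.47 and 9.99 TPM in control stroma, at a log2 of -0.98 ± 0.29 (SE; edgeR adjusted p = 0.141).

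The other genes with the smallest p in each list also did not pass. In the synthesis list these were the prolyl hydroxylase genes P3h2 at a log2 of -1.32, P4ha3 at -0.90 and P3h3 at -0.37, and the lysyl hydroxylase gene Plod3 at 0.25. In the processing list they were Tll1 at -1.26 and Adamts2 at -0.80, both proteases that trim procollagen, Pcolce2, which enhances trimming, at 0.42, and the lysyl oxidase family gene Loxl4 at 0.43. Mmp15 at -0.30 and Mmp9 at 0.50 followed among degradation genes. Among receptors, the integrin genes Itgb1 and Itga2 were at -0.46 and 0.25, the platelet collagen receptor gene Gp6 at 0.95 and Ddr1 at -0.13. Tnc at -0.56, Ogn at -0.26, Sparc at 0.23 and Dcn at -0.22 were the nearest fibril partners, and Lama3 at -0.26, Nid2 at 0.31, Agrn at -0.20 and Hspg2 at 0.19 the nearest basement membrane partners.

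The labels also allow a test against chimerism and a test of whether the sexes responded differently, and no collagen gene passed either. Among the 7 transplanted stroma libraries, none of the 44 and none of 31105 genes (0%) passed for a slope on log2 of the chimerism by edgeR, with 0 collagen genes and 1227 of all genes (3.94%) at an unadjusted p below 0.05. The collagen genes had a median slope of 0.13 per doubling, and 34 of 44 lay above 0. Over all genes the median was -0.0109, and 14821 of 31105 lay above 0. All 8 osteoblast and all 8 chondrocyte markers lay above 0 as well, and 3 of 6 fibroblast and tendon markers did. Haematopoietic markers had a larger median slope, 0.81, with 7 of 8 above 0 and 6 at an unadjusted p below 0.05 by edgeR. Of 8 erythroid markers 2 lay above 0, and of 6 megakaryocyte markers 0. The part of blood cells in the collagen slopes was not tested. For the interaction of sex and transplantation none of the 44 and none of 26191 genes (0%) passed by edgeR, with 1 collagen gene (Col17a1, log2 -2.92) and 745 of all genes at an unadjusted p below 0.05, and 1 gene of all passed by DESeq2. Between female and male stroma none of the 44 collagen genes passed by edgeR either, beside 0.367% of 26191 genes, with 14 collagen genes and 15.4% of all genes at an unadjusted p below 0.05. By DESeq2 9 collagen genes and 708 of all genes passed, and by edgeR without N032 6 and 216.

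Within stroma, collagen genes fell into groups that varied together from mouse to mouse. These correlations use log2 (CPM + 1), where CPM is counts scaled to the library total, share the libraries and their depth, and were 14 in one family. Col2a1 followed Col9a1 over the 15 libraries (Pearson r = 0.942, Spearman rho = 0.921, permutation p = 1e-05 for each, the smallest the 100000 permutations can give; adjusted p = 2e-05 and 2.3e-05). Without the 2 libraries farthest from the median of Col2a1, r was 0.894, and it was 0.812 in females and 0.934 in males other than N032. Col2a1 also followed the summed chondrocyte markers (r = 0.895, rho = 0.911, permutation p = 1e-05 for each; adjusted p = 2e-05 and 2.3e-05; r = 0.851 without the farthest 2). Over the 14 libraries other than N032, the 21 pairs among Col2a1, Col9a1, Col9a2, Col9a3, Col10a1, Col11a1 and Col11a2 had r from 0.69 to 0.99, with a median of 0.90, beside a median of 0.27 over 528 pairs of 33 collagen genes. Col27a1 joined them, at a median r of 0.92, and Col12a1 at 0.87.

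The genes of types I and III and of type IV also varied together. Without N032, the 3 pairs among Col1a1, Col1a2 and Col3a1 had a median r of 0.81, and the 6 pairs of these with Col4a1 and Col4a2 had r from 0.60 to 0.87, with a median of 0.79. Col1a1 followed Col1a2 (r = 0.927, rho = 0.946, permutation p = 1e-05 for each; adjusted p = 2e-05 and 2.3e-05; r = 0.926 without the farthest 2), and Col4a1 followed Col4a2 (r = 0.939, rho = 0.889, permutation p = 1e-05 for each; adjusted p = 2e-05 and 2.3e-05; r = 0.818 without the farthest 2). Col3a1 followed Col5a2, its neighbour on chromosome 1 (r = 0.903, rho = 0.914, permutation p = 1e-05 and 2e-05; adjusted p = 2e-05 and 4e-05; r = 0.893 without the farthest 2). Of 8 pairs of adjacent collagen genes in the RefSeq annotation, Col4a1 with Col4a2 and Col6a1 with Col6a2 were 2 more. Col1a1 followed Col3a1 less closely (r = 0.724, rho = 0.721, permutation p = 0.0023 and 0.0034; adjusted p = 0.0036 and 0.0053), with r = 0.535 without the farthest 2 and -0.055 in females, so this relation rests in part on few libraries. The correlation of Col2a1 with Col1a1 did not pass (r = 0.10, rho = -0.096, permutation p = 0.72 and 0.73; adjusted p = 0.74 and 0.79; r = -0.275 without the farthest 2 and 0.654 in males other than N032). Over the 14 libraries other than N032, the 21 pairs of Col1a1, Col1a2 or Col3a1 with the cartilage genes had r from -0.44 to -0.14. That of Col1a1 with the summed osteoblast markers did not pass either (r = 0.094, rho = -0.064, permutation p = 0.74 and 0.82; adjusted p = 0.74 and 0.82; r = -0.231 without the farthest 2). For this pair the sexes went opposite ways, with r = -0.654 in females and 0.759 in males other than N032.

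**Figure D4:**
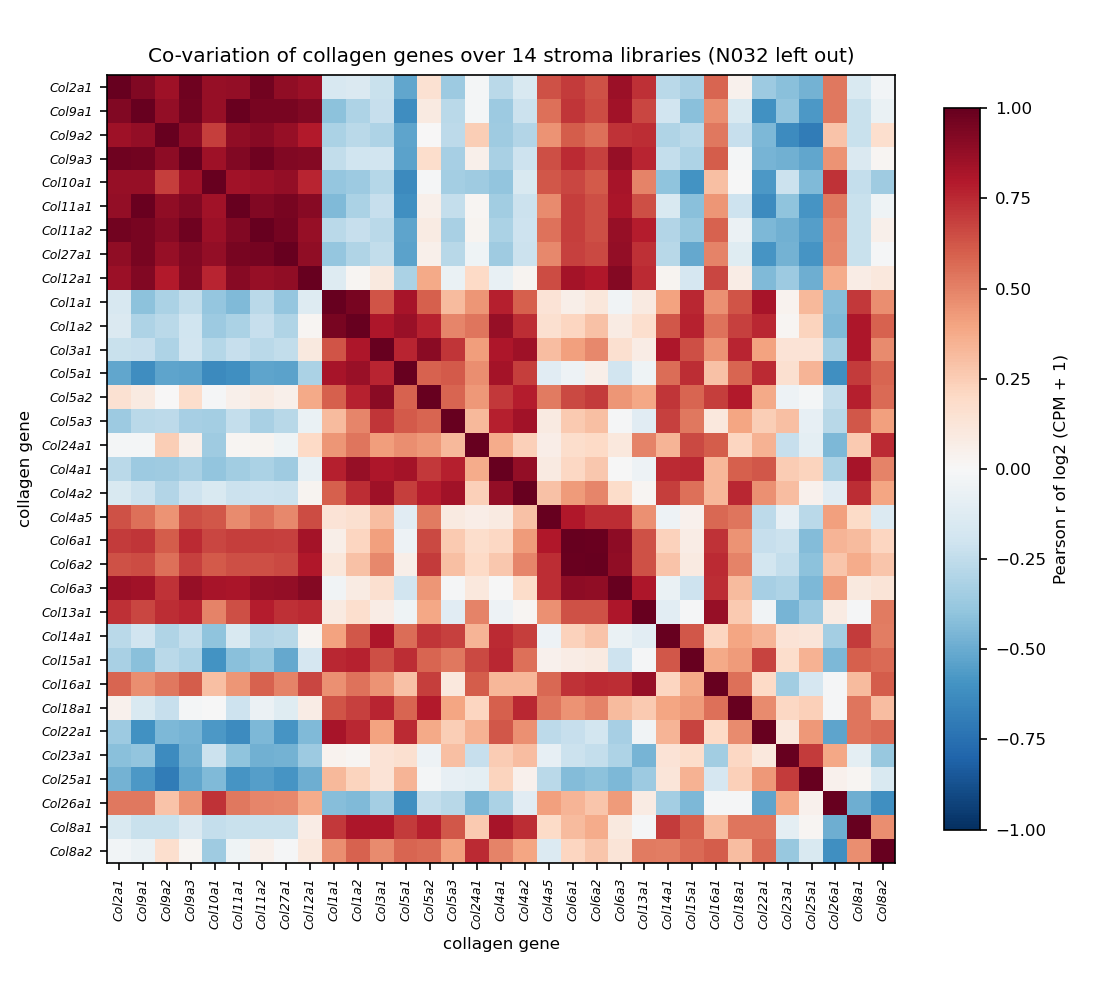
Pearson r of log2 (CPM + 1) between 33 collagen genes with a median of at least 1 TPM, over 14 stroma libraries without N032. The red block at the upper left holds types II, IX, X and XI with Col27a1 and Col12a1, and types I, III and V with Col4a1 and Col4a2 form another.

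In blood-forming cells collagen RNA was scarce, and 13 of the 44 genes passed the low-count filter in each of the 3 comparisons of CD45-sorted cells. Those that passed it only through the group where they are high had to differ, so counts among them support nothing. Summed over all 44 genes there were 13.3, 16.1 and 18.1 TPM in donor cells (lowest, median, highest), 13.4, 17.0 and 21.6 TPM in host cells and 15.2, 20.4 and 23.3 TPM in control CD45.1 cells. The largest share of that was Col11a2, at medians of 5.95, 5.62 and 5.77 TPM in donor, host and control cells. Next came Col5a1 with 1.73 TPM and Col4a1 with 0.880 TPM in donor cells, Col5a1 with 1.31 TPM and Col7a1 with 1.17 TPM in host cells, and Col5a3 with 2.41 TPM and Col7a1 with 1.70 TPM in control cells. LepR stroma markers summed to 1.3 to 5.14 TPM in donor, 1.94 to 4.54 TPM in host and 1.83 to 3.51 TPM in control cells. In the same order, chondrocyte markers summed to 0.930 to 2.81, 1.49 to 3.69 and 1.00 to 3.51 TPM. Osteoblast markers were higher, at 15.4 to 28.3, 18.2 to 30.9 and 11.4 to 28.6 TPM. Markers of fibroblasts and tendon (6 genes) were at 60.4 to 113, 62.1 to 124 and 65.7 to 114 TPM. These last 2 sums rest on few genes. In each of the 3 comparisons 2 of the 8 osteoblast markers and 1 of the 6 fibroblast and tendon markers passed the low-count filter. The sums therefore do not show that such cells were in the sorts.

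In donor cells 4 collagen genes were lower than in control CD45.1 cells and none higher, by edgeR over 13906 genes, of which 23.0% were lower and 45.7% passed in all. Col5a3, a minor type V chain, was at 0.160, 0.270 and 0.530 TPM in donor and 0.850, 2.41 and 4.62 TPM in control cells. Every donor library lay below every control, and the log2 fold change was -2.98 ± 0.30 (SE; edgeR adjusted p = 5.28e-07). Col27a1 was at 0.110, 0.340 and 0.540 TPM in donor and 0.600, 1.31 and 2.90 TPM in control cells, again without overlap (log2 -2.20 ± 0.25 SE, edgeR adjusted p = 1.70e-06). Col1a1 fell less, with 0.190, 0.350 and 0.550 TPM in donor and 0.280, 0.720 and 0.960 TPM in control cells (log2 -0.88 ± 0.21 SE, edgeR adjusted p = 0.00258). The groups overlapped for it, and the counts behind it were few, 21 to 46 per donor library and 28 to 78 per control library.

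Col9a3 was the fourth gene lower in donor cells, at 0.240, 0.470 and 0.970 TPM in donor and 0.420, 0.730 and 0.840 TPM in control cells (log2 -0.66 ± 0.22 SE, edgeR adjusted p = 0.0204). It had 5 to 18 counts per donor library and 16 to 29 per control library. In the GRCm38 annotation it shares 234 exon bases with Tcfl5 on the opposite strand, and the strand setting of the counting is not given in the sources used here, so its value is uncertain. It did not pass without a low-count filter (edgeR adjusted p = 0.0682). Col5a1 also shares exon bases with non-coding genes on the opposite strand, 99 and 113 of them. It was not lower in donor cells (log2 0.40 ± 0.25 SE, edgeR adjusted p = 0.209).

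**Figure D5:**
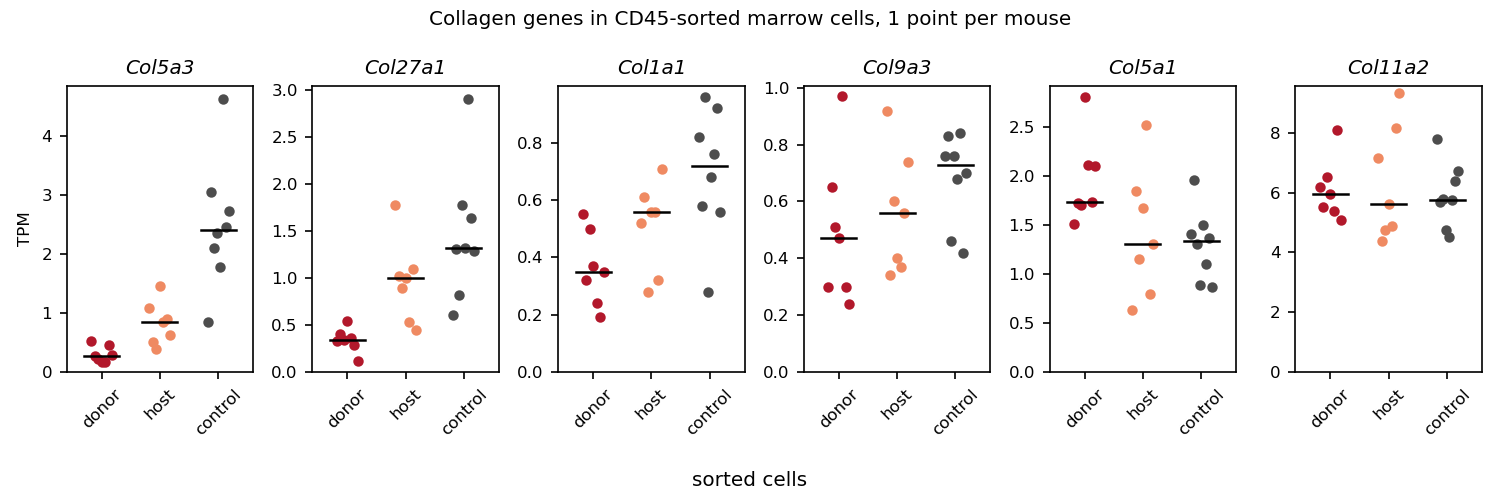
TPM of 6 collagen genes in donor CD45.2 (n = 7), host CD45.1 (n = 7) and control CD45.1 cells (n = 8), 1 point per mouse with the group median as a line. For Col5a3 and Col27a1 all donor points lie below all control points, and for Col11a2 the 3 groups overlap.

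Host cells were compared with the same 8 control libraries, so the values of the host and donor comparisons are not independent. Over 14073 genes 7.82% were lower, 8.61% higher and 16.4% passed in all, and of the collagen genes Col5a3 and Col9a3 were lower and none higher. Col5a3 was at 0.380, 0.840 and 1.46 TPM in host cells, against 0.850, 2.41 and 4.62 TPM in controls, and 4 of 7 host libraries lay below every control (log2 -1.65 ± 0.30 SE, edgeR adjusted p = 0.0018). Col9a3 was at 0.340, 0.560 and 0.920 TPM in host cells, against 0.420, 0.730 and 0.840 TPM in controls (log2 -0.58 ± 0.16 SE, edgeR adjusted p = 0.023). It no longer passed without host library N204 (edgeR adjusted p = 0.0554), by DESeq2 (adjusted p = 0.0505), without a low-count filter (edgeR adjusted p = 0.115) or on TPM plus 1 (limma adjusted p = 0.441). In females alone Col5a3 did not pass (log2 -1.21, edgeR adjusted p = 0.132). Col27a1 did not pass in host cells (log2 -0.61 ± 0.22 SE, edgeR adjusted p = 0.0659), nor did Col1a1 (-0.34 ± 0.20 SE, edgeR adjusted p = 0.266).

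Donor cells were also set against host cells of the same 7 animals. The main fit took sex as covariate and did not pair the 2 libraries of an animal, and a fit that pairs them follows it. Of 13662 genes 9.94% were lower in donor cells and 14.1% passed in all, and Col27a1 and Col5a3 were the collagen genes lower. Col27a1 was at 0.110, 0.340 and 0.540 TPM in donor and 0.450, 1.00 and 1.77 TPM in host cells, and 6 of 7 donor libraries lay below every host library (log2 -1.59 ± 0.25 SE, edgeR adjusted p = 2.68e-04). Col5a3 lay at a log2 of -1.38 ± 0.28 (SE; edgeR adjusted p = 0.00262), with 5 of 7 donor libraries below every host library. With the animal as a block 4 of 13 collagen genes and 4605 of 13662 genes passed, Col1a1 (log2 -0.53, edgeR adjusted p = 0.0176) as lower and Col5a1 (0.56, edgeR adjusted p = 0.00538) as higher in addition. Both had not passed without it (edgeR adjusted p = 0.135 and 0.270).

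Lymphocyte genes were lower in donor than in control cells. Cd79a, a chain of the B-cell receptor complex, had medians of 3.42 TPM in donor, 63.4 TPM in host and 144 TPM in control cells, and Cd3e, a chain of the T-cell receptor complex, medians of 0.310, 11.4 and 10.5 TPM. By edgeR, Cd79a was lower in donor cells (log2 -4.97, adjusted p = 9.5e-10) and in host cells (log2 -1.41, adjusted p = 8.7e-04) than in controls. Cd3e had 0 to 9 counts per donor library and 135 to 348 per control library (log2 -5.48). It passed the low-count filter there only through the controls and had to differ, so its p in donor cells supports nothing and is left out. In host cells Cd3e did not pass (log2 -0.0047, edgeR adjusted p = 0.99). Whether lymphocytes carry the Col5a3 and Col27a1 RNA was not tested. Among genes that handle collagen, 6 of 13 synthesis genes tested were higher in donor than in control cells and none lower, beside 22.7% of all genes higher, among them P4hb (log2 0.55) and Plod3 (0.55), whose products act on procollagen in the endoplasmic reticulum. In host cells 6 of 14 were higher and none lower, beside 8.61% of all genes higher, with P4hb at 0.34 and Plod3 at 0.40. Of 9 basement membrane partner genes tested in donor cells 5 were lower and 1 higher, beside 23.0% of all genes lower and 22.7% higher. Members that passed the low-count filter only through the controls had to be lower, so this count supports nothing. Nid1, which links laminin to type IV collagen, was at a log2 of -4.70. It was near the floor in donor cells, at a median of 0.02 TPM without N032, so its p is left out. Adamts14, a procollagen protease gene, was at 0.05, 0.22 and 0.400 TPM in donor and 1.01, 1.6 and 2.17 TPM in control cells (log2 -3.07, edgeR adjusted p = 2.67e-07).

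In CD11b-positive cells of the host 14 of 44 collagen genes were tested and none passed by edgeR, nor did any of 15257 genes (0%), with 2 collagen genes and 2506 of all genes at an unadjusted p below 0.05. By DESeq2, 2 collagen genes and 291 of all genes passed. Col5a1 was the highest collagen gene of control cells and the second of transplanted ones. It had 390, 585 and 566 counts in the 3 transplanted libraries and 852, 684 and 748 counts in the 3 controls. These are unscaled counts, lower in all 3 transplanted libraries; by TPM, N129 at 3.53 overlapped with control N128 at 3.48, and the other 2 lay below every control (log2 -0.69 ± 0.13 SE, edgeR adjusted p = 0.270, DESeq2 adjusted p = 0.0032). Col4a5, the other gene that DESeq2 called, had 46, 12 and 18 counts in transplanted libraries and 2 in each control. Its log2 was 3.61 ± 0.88 (SE; edgeR adjusted p = 0.270, DESeq2 adjusted p = 0.0376). It passed the low-count filter only through the transplanted libraries and had to differ, so its DESeq2 call supports nothing. It was near the floor, at 0.02 to 0.09 TPM in transplanted libraries and a median of 0.01 TPM in controls.

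The other leading collagen genes of CD11b cells were Col11a2, Col7a1 and Col1a1. Col11a2 had medians of 3.39 TPM in transplanted and 3.55 TPM in control cells, and Col7a1 of 1.21 and 0.850 TPM. Col1a1 was at 0.79, 0.57 and 2.07 TPM in transplanted and 0.75, 1.06 and 2.73 TPM in control libraries; on counts its log2 was -0.06 ± 0.24 (SE). Its partner Col1a2 had 244 counts in library N129 and 54 and 0 in the other transplanted libraries, against 16, 0 and 0 in controls, so that its log2 of 3.86 (edgeR adjusted p = 0.305) rests mostly on N129. The LepR stroma markers summed to 1.36, 0.230 and 2.34 TPM in transplanted libraries N187, N116 and N129 and to 0.180 to 0.300 TPM in controls; their part in this was not tested. Col3a1 had 38, 0 and 8 counts in transplanted libraries and none in the 3 controls, and was not tested.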

How the data were processed

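Per the submitters' processing notes, the authors aligned reads to GRCm39 with STAR 2.7.3a and counted them with featureCounts of Subread 1.6.2, with RSEM 1.3.3 in addition for CD11b cells. They deposited raw counts per gene and TPM values for 43 libraries. The sources used here do not give the annotation, the strand setting or the TPM tool, nor how the stroma libraries, sequenced 2 times, were combined; 34.17% of deposited stroma TPM values end in a 5 at the third decimal, and none elsewhere. Symbols were matched for 51948 of 56941 identifiers. Counts were tested with edgeR 4.0.16 (R 4.3.3): genes kept by filterByExpr, TMM scaling, quasi-likelihood test, sex as covariate except for the all-male CD11b cells, and Benjamini-Hochberg adjustment over all genes tested, at 0.05. limma 3.58.1 on log2 (TPM + 1) or log2 (TPM + 0.1) and DESeq2 1.42.0 were alternatives, with other filters and scalings, the labelled day of killing or the animal as a block, single sexes, thinned counts and each library left out. The test was checked on simulated data. Correlations used 100000 permutations.

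The collagen genes, gene lists and tests were chosen with earlier results of these data known. Named are the fibrillar and basement membrane genes, every collagen gene that passed in any comparison, the 10 with the highest median TPM in control stroma, the 3 highest in each other sort, and up to 4 genes with the smallest p in stroma from each related list. Col10a1, Col6a4, Col6a5, Col8a2, Col17a1 and Col20a1, and the related genes named in donor and host cells (P4hb, Plod3, Nid1, Adamts14), where the rule does not hold them, were chosen after their values were seen. So were the female over male comparison and the correlations without N032. Donor library N204 is labelled donor in its title and recipient-derived in another label; the title was used. Animals pair donor and host libraries, as 1 mouse gave both; deviations of the pairs correlated at 0.174 to 0.6 in the 7 animals. Each library is 1 mouse. Reference sequences and gene neighbours came from GRCm38, another build than that of the counts.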

Additional observations from a re-analysis of the deposited data

Results flagged for a closer look

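Dixon's test of the highest or lowest library was run on 45 groups of values, and 3 stood out, where chance alone picks about 1 in 20 groups. Col8a2 was at 2.02 TPM in transplanted stroma library N032, against 5.29 to 7.62 TPM in the 6 other transplanted libraries; N032 also had the least collagen RNA of all stroma libraries. Col9a1 was at 741 TPM in control stroma library N280, against 61.2 to 351 TPM in the other controls. Col6a5 was at 3.29 TPM in control stroma library N002, against 0.405 to 1.64 TPM in the other controls; N002 was the deepest library.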

How the results depend on the processing

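In stroma, the count of collagen genes that passed was 1 with DESeq2, with limma on TPM plus 1 and without N032, and 0 otherwise. Leaving out single libraries gave 0 to 1 collagen genes and 272 to 593 of all genes (593 without N032). Of all genes 750 passed with DESeq2, 250 with the labelled day of killing as a block (10 libraries), 125 in males and 0 in females. Signs near 0 turned: Col4a2 was at 0.0016 with a stricter filter, 0.0559 in females and 0.0063 with thinned counts, and Col3a1 at -0.1249 and -0.1256 on TPM plus 1 and plus 0.1 and -0.0418 in males. Over single libraries left out, Col1a1 ran from -0.4896 to 0.0261, Col3a1 from -0.0904 to 0.2557, Col4a1 from -0.1876 to 0.0177 and Col4a2 from -0.1174 to 0.1041. The correlation of Col2a1 with Col1a1 was -0.162 without N032. In host cells 1 collagen gene passed on TPM plus 1, on TPM plus 0.1 and in males, 0 in females, and 1 to 3 with a library left out; of all genes 1263, 1229, 479 and 121 passed, and 1527 to 2687 (1527 without N014). Col9a3 in host cells was also lost with DESeq2. In donor cells against controls 2 collagen genes and 3027 genes passed in males; leaving out libraries gave 4 to 5 and 5730 to 6732. In donor against host cells 1146 and 1142 genes passed on the TPM scales, 1136 in males and 450 in females, with 0 collagen genes in females; leaving out libraries gave 2 to 3 collagen genes and 1507 to 2554 genes. With the animal as a replicate block, 4 collagen genes and 4605 genes passed. In CD11b cells 2 collagen genes and 291 genes passed with DESeq2, 59 genes without a filter, and 2 and 3 on the TPM scales; without single libraries 0 to 28 genes passed (28 without N187, 3 without N129). DESeq2 called 1 gene of all for the interaction. Between female and male stroma, 1 collagen gene passed with RLE scaling and 9 with DESeq2, and 708 genes with DESeq2, 15 in control and 6 in transplanted stroma alone; leaving out libraries gave 0 to 6 collagen genes and 24 to 216 genes (6 and 216 without N032, 5 without N288). The causes were not tested. CD45-sorted libraries held few collagen reads, which limits values there.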

Other observations

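Cartilage collagens had the highest female over male values in stroma. This comparison of 7 female with 8 male stroma libraries, both transplanted and control, was chosen after seeing the data. None of the 44 collagen genes passed by edgeR over 26191 genes, of which 96 (0.367%) did; 14 collagen genes and 15.4% of all genes had an unadjusted p below 0.05, and DESeq2 called 9 collagen genes and 708 genes. By edgeR, 6 collagen genes and 216 genes passed without the male library N032, and 5 and 169 without the female library N288. Col10a1, of hypertrophic chondrocytes, was at 75.2, 186 and 219 TPM in transplanted females and at 8.23, 36.6 and 65.5 TPM in transplanted males (lowest, median, highest; n = 3 and 4). In controls it was at 22.6, 78.5 and 87.2 TPM in females and 11.2, 15.1 and 43.0 TPM in males (n = 4 each). The log2 difference of females over males was 1.97 (edgeR adjusted p = 0.0502). Col9a1 lay at 1.78, Col9a2 at 1.51, Col11a1 at 1.46, Col2a1 at 1.43 and Col27a1 at 1.13, all without passing when every library was used. All 8 chondrocyte markers had log2 values above 0 and 3 of them passed. Whether the sexes gave different amounts of cartilage to the sort was not tested.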
